A study of Mus musculus with 21 samples.

Results

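The 9 genes described here belong to the B lymphocyte lineage: Cd79a, Cd79b, Ms4a1, Cd22, Blk, Blnk, Mzb1, Pax5 and Pou2af1. They were picked by symbol as genes of B cell surface proteins, receptor signalling, antibody assembly and transcription. The choice was made with earlier results of these data known. All 9 were among the 19241 genes of both tumour tables. In the hematopoietic stem cell (HSC) tables, of 13513 and 13636 genes, 5 of the 9 were listed: Cd79b, Cd22, Blk, Blnk and Mzb1. Cd79a, Ms4a1, Pax5 and Pou2af1 were not listed there, and HSC values of these 4 genes were not analysed here.

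A B cell senses antigen through its receptor, a membrane antibody held by a dimer of CD79A and CD79B whose cytoplasmic tails are phosphorylated by kinases of the Src family such as BLK. The adaptor BLNK then links the kinase SYK to downstream enzymes, while the surface lectin CD22 restrains the signal and MS4A1, known as CD20, is a membrane protein of mature B cells. PAX5 commits progenitors to the lineage, POU2AF1 is a coactivator that joins octamer-binding factors on B cell promoters, and MZB1 is an endoplasmic reticulum protein that helps assemble antibodies.

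RNA was sequenced from mammary tumours and sorted HSC of MMTV-PyMT mice, in which a mouse mammary tumour virus promoter drives a viral oncogene in mammary epithelium. All 7 groups, of 3 libraries each, carried this transgene. Tumours came from sedentary and from physically active mice at week 12 and again at week 18, and HSC came from sedentary and from active mice at week 12. The last group held HSC of sedentary mice that had received cells of an active mouse, taken at week 14, so transplantation and week cannot be told apart. The labels call the libraries of a group biological replicates without naming the animals, so p-values measure the spread between these libraries. The form of the activity, the age at the start and how donor and host HSC were separated are not given in the sources used here. The question posed by the groups is whether physical activity changes gene expression in tumours and in HSC.

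Tumour libraries held 20838963 to 28973775 reads over the listed genes, and HSC libraries 16406889 to 72417315, with replicate 3 of each HSC group the deepest. Values are normalized counts, that is, reads divided by 1 scaling factor per library. Both tumour tables shared 1 scaling, since rescaling the 12 tumours together changed 0 values by more than 0.001. The HSC tables were scaled separately, so levels are not compared between tissues. Of 12 stem cell marker genes, 12 were listed in both HSC tables, where they summed to 12785 to 19226 normalized counts. A list of 10 neutrophil and granule genes, called neutrophil genes below, summed to 75759 to 398268 in the same libraries. It held S100a8, S100a9, Elane, Mpo, Ltf, Camp, Ngp, Lcn2, Prtn3 and Ctsg. All 7 epithelial markers were listed in tumours, and they summed to 73333 to 140969 in 11 tumours and to 57579 in active replicate 3 of week 12.

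Libraries that stood apart touch the results below. Active replicate 3 of week 12 lay above all 11 other tumours for 5050 of 19225 genes with a mean of at least 1, which is 26.3%, and below all of them for 19.2%. In the HSC, the active library that the labels number 6 (replicate 2) has different columns in the 2 tables, which differed at 13107 of the 13401 genes present in both. Each of the other active HSC libraries had 4 differing genes. Which column is the library cannot be told from the sources used here, so the main results of the 5 listed genes that use it are also given with the other column, put on 1 scale with the libraries of the comparison. Values of further genes in those comparisons use the deposited column unless stated.

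Promoter sequence was available for 5 of the 9 genes (Pax5, Cd79a, Cd22, Pou2af1 and Blnk), from RefSeq on build GRCm38.p6, in windows from 250 bases before the annotated start. Those of Cd22, Cd79a and Pou2af1 are shown because these genes were high together in 1 tumour, and because Cd22 and Cd79a hold a match to a B cell factor's motif. Pax5 was high in that tumour too, but its window, which holds none of the motifs searched, is not printed. The choice thus favours windows with a match. The windows were searched on both strands for the octamer ATGCAAAT, for TCCCNNGGGA, the palindrome bound by early B cell factor, and for GAGGAA, a core bound by PU.1. Only the stretch outside annotated exons is printed, 5′ to 3′ on the gene's strand, with a match in capitals. The Cd22 stretch is chr7:30879029-30879176 on the minus strand, and its palindrome lies 49 bases before the RefSeq start. In GENCODE M21, Cd22 spans chr7:30865402-30880342, so the 2 annotations place its start differently. By GENCODE this stretch lies inside the gene, outside its exons, and not upstream of it. The Cd79a stretch is chr7:24897247-24897380 on the plus strand, and its PU.1 core, read on the opposite strand, lies 140 bases before the start. The Pou2af1 stretch is chr9:51213440-51213689 on the plus strand and holds none of the 3 motifs.
Cd22: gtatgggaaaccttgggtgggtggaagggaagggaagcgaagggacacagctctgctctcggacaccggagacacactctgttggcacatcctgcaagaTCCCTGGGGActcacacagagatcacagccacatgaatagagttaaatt
Cd79a: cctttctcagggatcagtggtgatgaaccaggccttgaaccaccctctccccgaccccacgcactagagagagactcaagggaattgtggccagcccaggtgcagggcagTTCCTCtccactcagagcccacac
Pou2af1: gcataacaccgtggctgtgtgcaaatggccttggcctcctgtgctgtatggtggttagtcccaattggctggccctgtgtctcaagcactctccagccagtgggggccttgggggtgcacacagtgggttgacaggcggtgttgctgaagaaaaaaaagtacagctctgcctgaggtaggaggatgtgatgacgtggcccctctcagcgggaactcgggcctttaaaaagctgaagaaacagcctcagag
Of 32851 promoter windows of this length, 0.779% held the palindrome, 23.3% the PU.1 core and 1.6% the octamer. Blnk held the octamer on the opposite strand, 130 bases before its start and inside an annotated exon, so that stretch is not printed. A match describes letters and says nothing of binding.

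In tumours, 8 of the 9 genes shared 1 pattern. They were highest in active replicate 3 of week 12, an order that 26.3% of 19225 genes with a mean of at least 1 had. For 7 of the 8 genes that library stood at 17.6 to 195 times the highest of the other 11. For Pou2af1, high in a second tumour as well, it stood at 1.37 times. Blnk had no such pattern: it stood at 920 normalized counts in that library and at 391 to 2109 in the others. In bulk tissue, more cells of a type and more RNA per cell cannot be told apart.

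The receptor subunits and surface proteins come first. Cd79a, one chain of the receptor's signalling dimer, stood at 22.8, 26.3 and 18.7 normalized counts in sedentary replicates 1 to 3 of week 12, and at 23.7, 14.4 and 5131 in active replicates 1 to 3. Its values at week 18 were 23.9, 11.1 and 2.97 in sedentary and 13.5, 2.62 and 10.7 in active tumours. A single tumour was high, and the groups overlapped at both weeks.

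Cd79b, the partner chain, stood at 18.0, 31.6 and 21.5 in sedentary and at 27.3, 10.3 and 2892 in active tumours of week 12. At week 18 it stood at 27.8, 15.2 and 12.9 in sedentary and at 9.36, 15.7 and 8.91 in active tumours. The same tumour was high, and at week 18 the groups overlapped, with 2 active tumours below all sedentary ones. Per kilobase of exon, Cd79a and Cd79b had the 2 highest levels of the 9 genes in active replicate 3, with 3521 and 2021 normalized counts.

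Ms4a1 stood at 16.8, 11.6 and 8.42 in sedentary and at 20.04, 5.15 and 2499 in active tumours of week 12. At week 18 it was near the detection limit, with 2.87, 1.01 and 0 in sedentary and 1.04, 2.62 and 6.24 in active tumours. The 3 sedentary tumours of week 18 held at most 3 reads of Ms4a1 each and lay below all sedentary tumours of week 12. It was the only 1 of the 9 genes with that order, which 6.02% of 19000 genes had.

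Cd22 stood at 37.2, 31.6 and 36.5 in sedentary and at 27.3, 30.9 and 4225 in active tumours of week 12. At week 18 its values were 57.4, 56.7 and 31.7 in sedentary and 78.0, 38.5 and 47.2 in active tumours. Apart from active replicate 3 of week 12, Cd22 stayed within 27.3 to 78.0, and activity groups overlapped at both weeks. An antisense gene, Gm29439, overlaps Cd22 on the opposite strand, and strand use in the counting is not stated, so reads of both may be mixed.

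Of the signalling genes, Blk stood at 9.60, 8.43 and 2.81 in sedentary and at 10.02, 5.15 and 943 in active tumours of week 12. At week 18 it held 2.87, 2.02 and 0 in sedentary and 5.20, 0 and 1.78 in active tumours. Blk was high in the same single tumour, and at week 18 no tumour held more than 5 of its reads. Blnk stood at 721, 1032 and 1264 in sedentary and at 1513, 1754 and 920 in active tumours of week 12. Its values at week 18 were 391, 1596 and 2109 in sedentary and 506, 1725 and 1463 in active tumours. Blnk was thus abundant in every tumour, its lowest value was in a sedentary tumour of week 18, and the groups overlapped. Per kilobase its median over the 11 other tumours was 244 normalized counts, against 0.833 to 20.9 for the other 8 genes.

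Mzb1, the antibody assembly factor, stood at 3.60, 11.6 and 5.61 in sedentary and at 6.38, 3.09 and 204 in active tumours of week 12. At week 18 it stood at 3.83, 9.11 and 3.97 in sedentary and at 0, 6.99 and 2.67 in active tumours. Its excess in active replicate 3 of week 12, 17.6 times the highest other tumour, was the smallest of the 7 genes other than Blnk and Pou2af1, and the next was that of Cd22 at 54.2 times. SPATA24 overlaps Mzb1 on the same strand, so reads in their shared exons could be counted for either.

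The transcription genes differed from each other. Pax5 stood at 24.0, 36.9 and 17.8 in sedentary and at 20.04, 19.6 and 2972 in active tumours of week 12, and at week 18 at 21.1, 31.4 and 9.91 in sedentary and 3.12, 28.8 and 22.3 in active tumours. It followed the receptor genes, with 1 high tumour and overlapping groups. Antisense genes, Gm12462 and 5730488B01Rik, overlap it. Pou2af1 stood at 39.6, 44.3 and 53.3 in sedentary and at 77.4, 77.3 and 1445 in active tumours of week 12. At week 18 it stood at 11.5, 234 and 44.6 in sedentary and at 1054, 59.4 and 44.6 in active tumours.

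Pou2af1 was therefore high in a second tumour, active replicate 1 of week 18, in which Ms4a1 stood at 1.04, Pax5 at 3.12 and Mzb1 at 0 normalized counts. In the same tumour Cd22 stood at 78.0, its highest value outside active replicate 3 of week 12. Blk stood there at 5.20, its highest of week 18, Cd79a at 13.5, Cd79b at 9.36 and Blnk at 506. For Pou2af1 the 3 active tumours of week 12 lay above the 3 sedentary ones, without overlap. It was the only 1 of 9 genes with that order, which 4.36% of 19162 genes had.

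**Figure D1:**
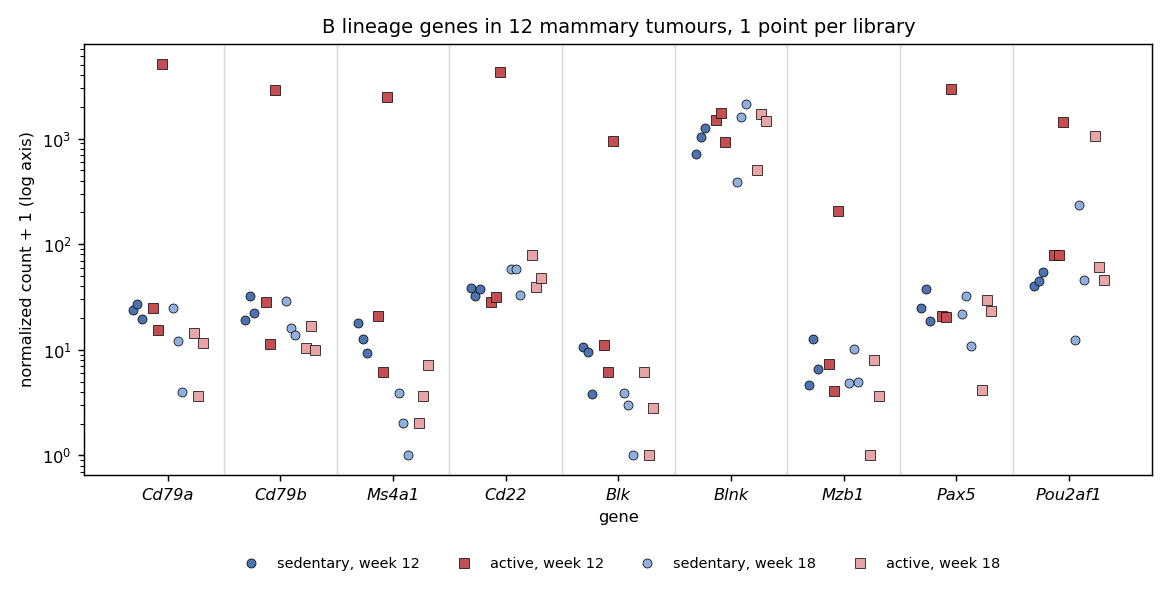
Normalized counts plus 1 on a log axis for the 9 B lineage genes, with 1 point per tumour library, circles for sedentary and squares for active mice, dark for week 12 and light for week 18. A single dark square, active replicate 3 of week 12, sits far above the other points for 7 genes, above a second high square for Pou2af1 (1054 normalized counts, active week 18) and within the range for Blnk.

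Ordered by mean level, the active tumours of week 12 came first for all 9 genes, with 1723 ± 2951 (SD, n = 3) for Cd79a, 1428 ± 2423 for Cd22 and 71.2 ± 115 for Mzb1. For 8 of them, Blnk excepted, the SD exceeded the mean. Of the 27 pairs of neighbouring groups in these orders, 26 overlapped, and the exception was Ms4a1 between sedentary tumours of week 12 (12.3 ± 4.23) and active tumours of week 18 (3.30 ± 2.67). The lowest group varied by gene: active week 18 for Cd79a, Cd79b, Pax5 and Mzb1, sedentary week 18 for Ms4a1 and Blk, and sedentary week 12 for Cd22, Blnk and Pou2af1.

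Active and sedentary tumours of week 12 were compared with limma on log2(normalized count + 1). None of the 9 genes passed the adjusted threshold of 0.05, where 99 of 19162 genes (0.517%) did. All 9 differences were above 0, with a median of 2.12 on the log2 scale against 0.01 over all genes. Cd79a differed by 2.42 (SE 2.31, 95% confidence interval -3.37 to 8.20, limma adjusted p = 0.97). The differences of the other 8 genes ran from 0.46 for Blnk to 2.46 for Blk, all at a limma adjusted p of 0.97. The intervals of all 9 genes include 0. On recovered reads the median was 5.31 with edgeR, which also called 0 of the 9.

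Without active replicate 3, the median of the 9 differences was -0.26. Cd79a stood at -0.26, Cd79b at -0.43, Ms4a1 at -0.17, Cd22 at -0.26, Pax5 at -0.33 and Mzb1 at -0.40, so 6 differences turned below 0. Blk stood at 0.18, Blnk at 0.73 and Pou2af1 at 0.76, whose limma adjusted p of 0.515 was the lowest of the 9. Again 0 of the 9 genes passed. The direction at week 12 thus rests on 1 library for Cd79a, Cd79b, Ms4a1, Cd22, Pax5 and Mzb1.

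**Figure D2:**
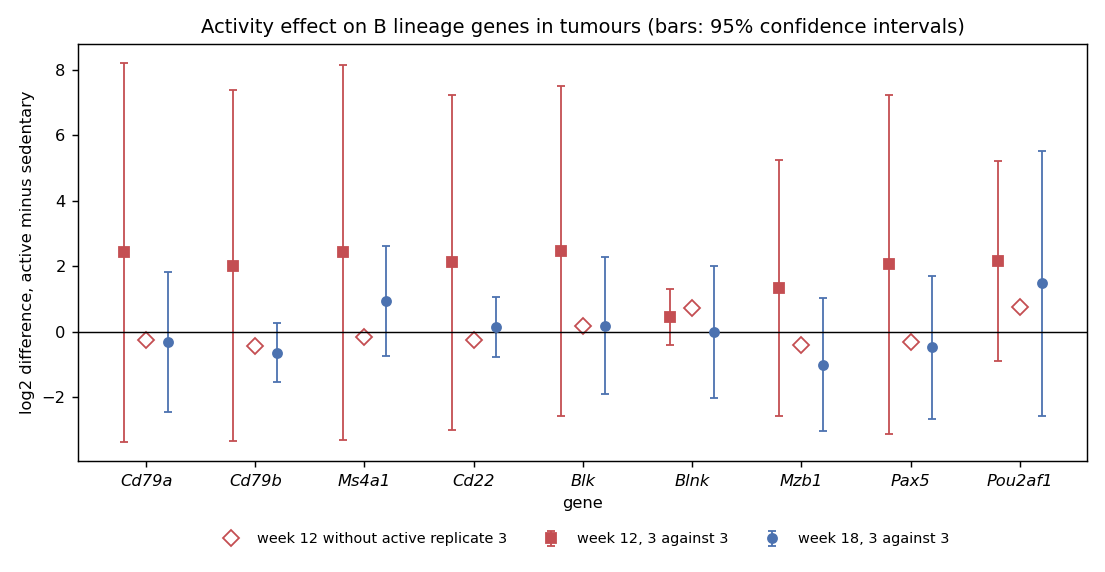
Log2 difference of active minus sedentary tumours for each gene, with filled squares for week 12 and circles for week 18, bars for 95% confidence intervals, and open diamonds for week 12 without active replicate 3. The fits shown left out any pairing by replicate number. The intervals include 0 for all genes at both weeks, and 6 diamonds lie below 0, at -0.43 to -0.17.

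At week 18 none of the 9 genes passed either, where 0 of 18939 genes (0%) did with limma and 1131 had an unadjusted p under 0.05. DESeq2 called 52 genes there, edgeR 0, and neither called any of the 9, although DESeq2 gave no adjusted p for 4 of them (Ms4a1, Blk, Mzb1 and Pou2af1). The differences ran from -1.01 (SE 0.81) for Mzb1 to 1.48 (SE 1.62) for Pou2af1, with 4 above and 5 below 0 and a median of -0.01, against 0.01 over all genes. Cd79b had the smallest p of the 9, with a difference of -0.64 (SE 0.37, 95% confidence interval -1.55 to 0.28, limma adjusted p = 0.824).

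The change of the activity effect between weeks was tested over all 12 tumours, as the effect at week 18 minus that at week 12. None of the 9 genes passed, where 2 of 19241 genes (0.0104%) did. The 9 differences were below 0 with a median of -2.28, and Cd79a, at -2.74 (SE 2.63, 95% confidence interval -8.64 to 3.16), had a limma adjusted p of 0.799. Without active replicate 3 of week 12 their median was -0.06, and Ms4a1, Cd22, Blk and Pou2af1 turned above 0, with 1.10, 0.41, 0.0023 and 0.72.

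Other gene lists moved with the 9 genes in active replicate 3 of week 12. These lists, like the 9 genes, were chosen with earlier results of these data known. Of 12 further B cell surface genes 11 lay above all other tumours, the exception being Cd81, a gene of many cell types, which lay below them. Further B cell transcription genes lay above in 11 of 12 cases, receptor signalling genes in 11 of 14, and early B cell genes in 4 of the 5 listed, beside the 26.3% of all genes.

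Markers of some other cells moved too, where 26.3% of all genes lay above the other 11 tumours and 19.2% below. All 13 T cell genes lay above the other 11 tumours and summed to 17364 normalized counts, against 260 to 655 elsewhere. All 9 genes of lymph node stroma and follicles did so as well, with 14472 against 122 to 1086. Of 8 plasma cell genes 2 lay above and 2 below, and of 7 neutrophil genes 2 lay above and 1 below, shares near those of all genes. Of 8 macrophage genes 1 lay above and none below, under the shares of all genes. Of 8 plasmacytoid dendritic cell genes 5 lay above and none below. Of the 11 stem cell markers listed in tumours 8 lay above and 1 below, with a median of 3.42 times the level of the other tumours. None of 7 epithelial markers lay above and 6 lay below, with a median of 0.49 times the level of the other tumours. None of 12 skeletal muscle genes lay above and 4 lay below. In active against sedentary tumours at week 12 all 12 were lower, and 10 of them passed the threshold. Among the 10 were Myh2 at -5.34, Pvalb at -7.37, Mylpf at -6.85 and Tnnc2 at -7.43 on the log2 scale. The lists share Irf4 (transcription and plasma cell) and Cr2 (surface and follicle). The part of these cells in the values of the 9 genes was not tested.

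**Figure D3:**
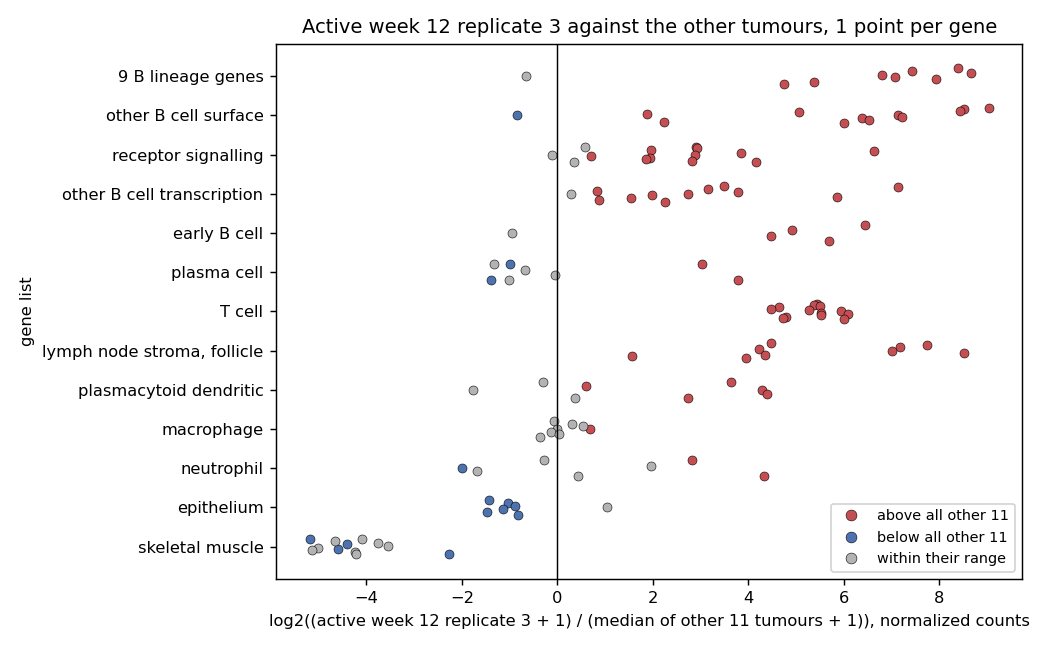
Each point is 1 gene of a list, placed by the log2 ratio of its normalized count plus 1 in active replicate 3 of week 12 to the median of the other 11 tumours plus 1. Points above all other tumours lie to the right. They include 8 of the 9 B lineage genes, 13 of 13 T cell genes and 9 of 9 lymph node genes, beside 26.3% of all genes. To the left and below all others lie 6 of 7 epithelial genes, beside 19.2% of all genes.

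The lists held no other call at either week. In the further surface genes none of 12 passed at week 12, and the smallest unadjusted p values were those of Fcrl1, an Fc receptor-like protein, with a log2 difference of 3.06 (SE 2.02), and Tnfrsf13c, the receptor for the survival factor BAFF, with 2.49 (SE 1.70). In the further transcription genes none of 12 passed, with Bach2 at 0.94 (SE 0.54) and Ebf1 at 1.30 (SE 0.89). In the early genes none of 5 passed, with Lef1 at 2.69 (SE 1.71) and Il7r at 1.54 (SE 1.25). At week 18 none of these 3 lists had a gene past the threshold, and the 2 smallest unadjusted p-values of each list had either sign. Among surface genes Cd37 stood at -0.99 (SE 0.57) and Fcer2a at 1.97 (SE 1.35), among transcription genes Ebf1 at -0.90 (SE 0.41) and Spib at 1.22 (SE 0.77), and among early genes Vpreb1 at -0.45 (SE 0.34) and Lef1 at 1.95 (SE 1.49).

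The authors' deposited table for week 12 gave log2 fold changes of 3.46 to 6.27 for the 8 genes other than Blnk, with 6.27 for Cd79a and 3.46 for Mzb1. In that deposited table, the p-value and the adjusted p-value of these 8 genes were 1. Read on a chi-square scale of 1 degree of freedom, as other genes' p-values were made, the deposited statistics would give p-values of 0.00294 for Pou2af1 to 0.0318 for Mzb1. For Blnk the authors' deposited p-value was 0.198. The authors' deposited table for week 18 also gave a p-value of 1 for Pou2af1, whose statistic would give 0.227. How these p-values were set to 1 is not given in the sources used here.

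Across the 12 tumours, log2 levels of the 7 genes other than Blnk and Pou2af1 had Pearson correlations of 0.74 to 0.98 over 21 pairs, with a median of 0.90, which rest on active replicate 3 of week 12. Over the other 11 tumours the same pairs ran from -0.58 to 0.91 with a median of 0.30, and 15 of 21 were above 0. Pairs with Blnk had a median of -0.16 in both sets. Of 16440 genes, Gimap1 and Sipa1 were most like the mean of the 9 genes over 12 tumours, at 0.99 and 0.98. Rasgrp3, Rcsd1, Gpr132, Chst4, Lax1, Ltb and Gimap4 were also among the most like, down to 0.97.

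Over the 11 other tumours the most like genes were Arap3, Dnm3os, Arhgef15, Gm16310, Mttp, Sox17, Clec1a, Sema3a, Gm454 and Robo4, at 0.95 to 0.87. These values share libraries with the 9 genes and describe likeness only. At 11 libraries and low counts, they carry no test.

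In HSC, 5 of the 9 genes had values, all low except Cd79b. In the table of sedentary and active HSC, Cd79b stood at 228, 183 and 157 normalized counts in sedentary replicates 1 to 3 and at 185, 55.3 and 167 in active ones. Cd22 stood at 7.44, 3.21 and 6.33 in sedentary and at 18.5, 10.3 and 8.59 in active HSC. Every active library exceeded every sedentary one for Cd22, on 2 to 23 reads per library, whereas for Cd79b the groups overlapped and library 6 was lowest.

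Blk stood at 0, 1.61 and 14.5 in sedentary and at 5.45, 0 and 7.84 in active HSC. Blnk stood at 13.4, 17.7 and 13.1 in sedentary and at 14.2, 0 and 9.71 in active HSC. Mzb1 stood at 1.49, 0 and 4.07 in sedentary and at 3.27, 0 and 4.11 in active HSC. The groups overlapped for these 3 genes, and library 6 was at 0 for each.

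None of the 5 genes passed between active and sedentary HSC, where 0 of 13513 genes (0%) did with limma and 1252 had an unadjusted p under 0.05. Cd22 was the only 1 of 5 genes whose active group lay above the sedentary one, an order that 10.4% of all genes had. It differed by 1.01 (SE 0.38, 95% confidence interval 0.07 to 1.94), at a limma adjusted p of 0.475. With the other column of library 6 it differed by 0.59 (limma adjusted p = 0.947) and the groups overlapped, at 20.48, 4.07 and 9.43 in active and 8.20, 3.56 and 6.95 in sedentary HSC. The median of the 5 differences was 0.17, against 0.00 over all genes, and it was 0.59 with the other column and -0.39 with edgeR. DESeq2 called 274 genes. Of these 5 it gave only Cd79b an adjusted p, of 0.613.

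Neutrophil genes moved beside these values. All 10 were above 0 in active against sedentary HSC, with a median of 2.64 and 0 past the threshold, and they summed to 75759 to 109080 normalized counts in sedentary and 133307 to 398268 in active HSC, the highest being library 6. With the other column of that library, a comparison added after seeing the data, all 10 were again above 0 but with a median of 1.06, and the sums overlapped. They were then 83907 to 119729 in sedentary and 87062 to 251084 in active HSC, with library 6 the lowest active one. DESeq2 called 6 of the 10 genes in the deposited table. Which cells carry these genes, and their part in the values of Cd22, was not tested.

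In the table of active and transplant HSC, Cd79b stood at 202, 174 and 185 in active and at 128, 96.1 and 149 in transplant replicates 1 to 3. Blk stood at 5.93, 5.36 and 8.69 in active HSC, on 5, 4 and 21 reads, and at 0 in all 3 transplant libraries. Blnk stood at 15.4, 26.8 and 10.8 in active and at 2.81, 0 and 5.68 in transplant HSC. In this table all 3 transplant libraries lay below all active ones for these 3 genes.

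Mzb1 stood at 3.56, 1.34 and 4.55 in active and at 0 in all 3 transplant libraries, without overlap but on 1 to 11 reads. Cd22 stood at 20.2, 4.02 and 9.52 in active and at 2.81, 9.73 and 4.46 in transplant HSC, and its groups overlapped. So 4 of the 5 genes had transplant libraries below active ones without overlap, an order shared by 12.1% of 13633 genes. With the other column of library 6, none of the 5 genes had that order, which 3.33% of 13380 genes had. Active replicate 2 then stood at 67.5 for Cd79b, below transplant libraries at 108 to 169, and at 0 for Blk, Blnk and Mzb1. The absence of overlap thus rests on the column used for 1 library.

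**Figure D4:**
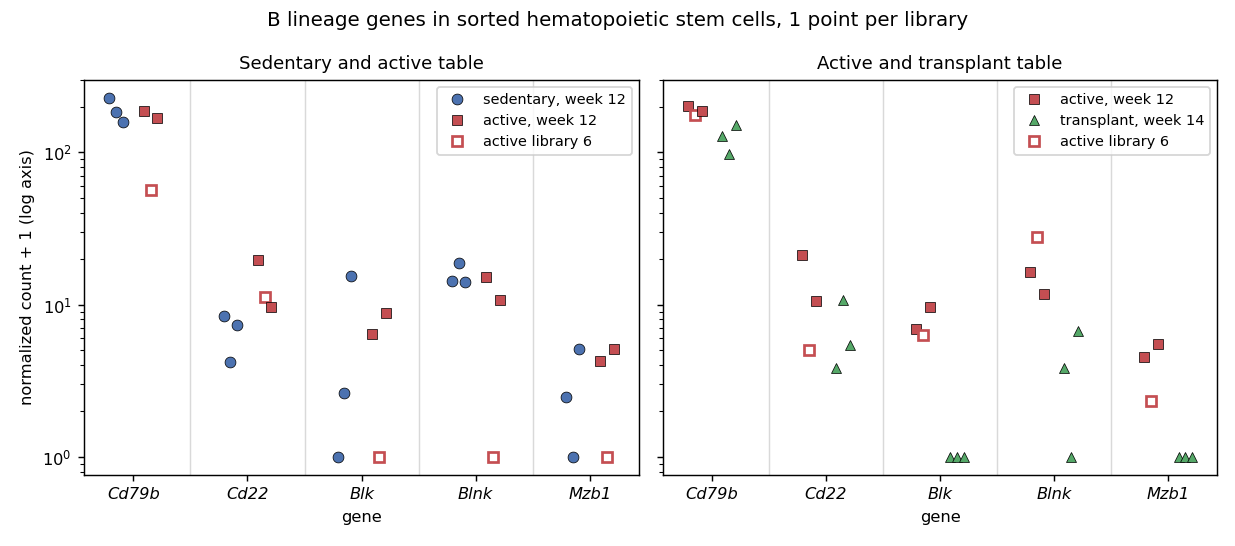
Normalized counts plus 1 on a log axis for the 5 listed genes, with 1 point per HSC library, in the sedentary and active table (left) and the active and transplant table (right), each scaled on its own. The open square is active library 6, which is at 0 for Blk, Blnk and Mzb1 in the left table and at 5.36, 26.8 and 1.34 in the right one, and all transplant libraries are at 0 for Blk and Mzb1.

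With limma and without a replicate block, 1 of the 5 genes passed between transplant and active HSC, where 7 of 13633 genes (0.0513%) did. Blk fell by 2.91 on the log2 scale (SE 0.18, limma adjusted p = 0.0203), and against a floor of 3 reads per library it was at least 2.20-fold lower in transplant HSC, with 0 of 3 libraries holding a read. Replicate numbers were taken as paired in this comparison, from correlations of 0.11, 0.124 and 0.309, though the labels name no pairing. With a replicate block limma gave Blk an adjusted p of 0.17. No gene passed with that block. The call was also lost with edgeR (adjusted p = 0.0976), and with the other column of library 6 the limma adjusted p was 1.00 and the difference -2.13. Without active replicate 2 the limma adjusted p was 0.0892, without transplant replicate 1 it was 0.0995 and without transplant replicate 2 it was 0.129. Over all alternatives the adjusted p of Blk ran from 0.00201 to 1.00.

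Mzb1 was at least 1.04-fold lower by the same floor (limma adjusted p = 0.151). Cd79b differed by -0.60 (SE 0.19, limma adjusted p = 0.223), Blnk by -2.57 (SE 0.75, limma adjusted p = 0.212) and Cd22 by -0.77 (SE 0.63, limma adjusted p = 0.534). The median of the 5 differences was -1.96, against 0.00 over all genes, and with the other column of library 6 it was -1.22. With that column Cd79b stood at -0.095, Blnk at -0.99, Cd22 at -1.22 and Mzb1 at -1.65, each at a limma adjusted p of 1.00.

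The authors' deposited table for these groups gave Blk a log2 fold change of -5.03, a p-value of 0.0134 and an adjusted p-value of 1. In the authors' deposited table Blnk had an adjusted p-value of 0.0965, Cd79b of 0.155 and Cd22 of 0.587, so none of the 5 genes passed there.

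Transplant and sedentary HSC were set on 1 scale from the recovered reads, without the disputed library. These comparisons share libraries with those above: the active libraries serve both deposited comparisons, and the sedentary and transplant ones return here. On this scale Cd79b stood at 248, 200 and 172 in sedentary and at 128, 96.0 and 149 in transplant HSC, and Blnk at 14.6, 19.3 and 14.4 against 2.80, 0 and 5.68. The groups did not overlap for these 2 of 5 genes, an order shared by 18.4% of 13329 genes.

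None of the 5 genes passed here, where 1553 of 13329 genes (11.7%) did. Cd79b differed by -0.74 (SE 0.22, limma adjusted p = 0.0832) and Blnk by -2.53 (SE 0.69, limma adjusted p = 0.0686). Without transplant replicate 3, Blnk passed, at -3.12 with a limma adjusted p of 0.0409. DESeq2 gave Cd79b an adjusted p of 0.0462. Blk, at 0, 1.75 and 15.9 in sedentary HSC and at 0 in transplant HSC, was at least 1.94-fold lower by the floor (limma adjusted p = 0.258), which rests on 1 sedentary library with 32 reads. Cd22 differed by -0.18 (SE 0.46), and Mzb1, with at most 9 reads in sedentary HSC and 0 in transplant HSC, allows no fold. The median of the 5 differences was -1.28, against 0.00 over all genes.

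Other B lineage and marker genes in the transplant against sedentary comparison moved beside these. Of 5 early B cell genes 4 were lower and all 4 passed the threshold, on a background of 11.7% past the threshold in either direction. Rag2, a recombinase subunit, stood at -4.72 (SE 0.54), its partner Rag1 at -4.50 (SE 0.93), the interleukin 7 receptor chain Il7r at -2.87 (SE 0.57), and Dntt, which adds bases at antigen receptor joints, at -6.66 (SE 1.48). Their limma adjusted p-values ran from 0.0112 to 0.0442. In transplant HSC Rag2 averaged 0.68 and Rag1 2.00 normalized counts, so the size of their differences depends on the 1 added before the logarithm.

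Of 12 further B cell transcription genes 9 were lower, and 4 of them passed: Bach2 stood at -2.64, Irf8 at -1.47, Pou2f2 at -1.22 and Tcf3 at -0.55. Of 7 further surface genes 4 were lower, and 1 of them passed, Tnfrsf13c, at -2.70 (SE 0.63). Of 14 receptor signalling genes 10 were higher, and 3 of them passed, Dok3 at 1.51, Prkcb at 2.75 and Pik3ap1 at 0.79.

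Between transplant and active HSC none of the 7 surface, 14 signalling, 12 transcription and 6 early genes tested passed. The smallest unadjusted p-values there were those of Bach2 at -2.63 (SE 0.31) and Irf8 at -1.25 (SE 0.18) among transcription genes, Rag1 at -4.24 (SE 0.89) and Il7r at -2.58 (SE 0.69) among early genes, and Tnfrsf13c at -1.88 (SE 0.68) and Cd37 at 0.32 (SE 0.13) among surface genes. Between active and sedentary HSC none of these 4 lists had a gene past the threshold. Among early genes there, Igll1, part of the surrogate light chain, stood at 2.34 (SE 0.77), on at most 11 reads, and Rag2 at -3.03 (SE 1.06). Igll1 was the only 1 of the 5 early genes above 0, and the median of the 5 differences was -2.37. The 5 genes summed to 1038 to 1646 normalized counts in sedentary and 41.1 to 904 in active HSC. In sedentary HSC most of the sum was Dntt, at a mean of 1144 of 1427 on the scale shared with transplant HSC. With the other column of library 6 the sums of active and sedentary HSC overlapped, at 1143 to 1807 in sedentary and 379 to 1328 in active HSC. Between transplant and active HSC the 6 early genes summed to 24.3 to 91.2 and 377 to 1314. With the other column, over 5 genes, the sums overlapped there too, at 27.5 to 103 and 50.2 to 1131.

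Markers of other cells moved with the transplant values. All 10 neutrophil genes rose in transplant against sedentary HSC, with a median of 3.54 on the log2 scale. All 10 passed the threshold with limma, where 11.7% of all genes did. Their sum ran from 82508 to 119491 normalized counts in sedentary and from 307240 to 396007 in transplant HSC. S100a8, Lcn2 and S100a9 had the smallest p-values, at 4.13, 2.94 and 4.74. In transplant HSC S100a8, Lcn2, S100a9 and Ngp averaged 6319, 2254, 7082 and 5248 normalized counts, against a mean sum of 341508 over the list. That sum thus rested mostly on Elane, Mpo, Ltf, Camp, Prtn3 and Ctsg. Between transplant and active HSC all 10 neutrophil genes were above 0 with a median of 2.44 and 0 past the threshold with limma. With the other column of library 6 their median was 0.72, and the sums overlapped, at 166749 to 486007 in active and 347582 to 447328 in transplant HSC. Of 7 T cell genes 1 passed there with limma, Zap70, at -3.26 (SE 0.26, limma adjusted p = 0.0404). It averaged 0.27 normalized counts in transplant and 10.7 in active HSC, on at most 26 reads per library. The call of Zap70 was lost with a replicate block (limma adjusted p = 0.173), with edgeR (adjusted p = 0.0774) and with the other column of library 6 (limma adjusted p = 1.00). Of 12 stem cell markers 4 were higher and 8 lower in transplant against sedentary HSC, while the sum of the 12 overlapped between these groups. Slamf1 passed the threshold at 1.72, as did Hlf at -1.13, Hoxa9 at -1.71 and Mecom at -1.23. In the same comparison 5 of 7 T cell genes were lower, and 2 of them passed (Zap70 and Lck). All 7 plasmacytoid dendritic cell genes were lower, and 2 of them passed (Tcf4 and Cox6a2). Of 7 plasma cell genes 5 were higher and 2 lower, and 1 of the lower ones passed (Sdc1). Of 6 macrophage genes 5 were higher, and 2 of them passed (C1qb and C1qc). Of 6 epithelial genes 3 were higher, and 1 of them passed (Erbb3). The part of these cells in the values of Cd79b, Cd22, Blk, Blnk and Mzb1 was not tested.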

How the data were processed

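The authors deposited 4 tables of normalized signal per gene, 1 per comparison; each value is a whole read count over 1 factor per library (whole for 100% of values). The deposited columns also give the authors' log2 fold change, p-value, adjusted p and a test statistic, a score per gene. The deposited tables are named as data of DEBrowser, and the test behind these columns is not stated. Build mm10 is named in the submitters' processing notes. Per the labels' protocols the mRNA kit was stranded. Aligner, counter and annotation are not given in the sources used here. Each HSC table holds 21 symbols turned into dates, tested but not named.

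Genes whose mean reached 1 in either group were tested with limma 3.58.1 in R 4.3.3 on log2(value + 1), which understates changes of low genes, with Benjamini-Hochberg adjustment over all genes at 0.05. Alternatives were edgeR 4.0.16 and DESeq2 1.42.0 on recovered reads, pseudocounts of 0.1 and 5, no filter or a mean of 10, leaving out each library, the replicate number as a block, HSC replicates 1 and 2 alone, and the other column of library 6. Alternatives for Zap70, for the neutrophil genes and for overlaps of the HSC groups were chosen after seeing the data. Tumours of both weeks, and sedentary with transplant HSC, were joined by symbol and rescaled by the median of ratios. The fit was tested on simulated data. A group with at most 3 reads per library counts as at the floor, for counting error only.

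Replicate numbers were checked for pairing across genes, by correlating how libraries with 1 number departed from their groups. Correlations were 0.185, 0.201 and 0.189 in tumours of week 18 and 0.11, 0.124 and 0.309 in transplant against active HSC, so these were taken as paired. The main fits, with their SE, intervals and p-values, still left the pairing out in every comparison. The pairing entered only through the replicate block. Elsewhere at least 1 of 3 was under 0.1. Exon lengths came from GENCODE M21.

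The 9 genes and 13 marker lists were chosen with earlier results of these data known. All 9 were named wherever listed. List genes past the threshold were named, at most 4 per list, or with none past it up to 2 of the surface, transcription and early lists by smallest p. Results of some genes are not reported here.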

Additional observations from a re-analysis of the deposited data

How the results depend on the processing

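In tumours 0 of the 9 genes passed under any alternative that gave them an adjusted p. DESeq2 gave none for 8 of the 9 at week 12 and for the change between weeks, Blnk excepted, and none for 4 of the 9 at week 18, so these genes could not pass there. The median difference at week 12 was 5.31 with edgeR and 5.32 with DESeq2 on recovered reads, and that of the change between weeks was -5.06 and -5.04. With libraries left out in turn, the week 12 differences ran from -0.26 to 3.93 for Cd79a, -0.43 to 3.57 for Cd79b, -0.17 to 4.16 for Ms4a1, -0.26 to 3.35 for Cd22, -0.33 to 3.26 for Pax5 and -0.40 to 2.42 for Mzb1, each lowest without active replicate 3. At week 18 they ran from -1.03 to 0.29 for Cd79a, -0.14 to 0.36 for Cd22, -1.02 to 0.41 for Pax5, -0.44 to 0.87 for Blk and -0.76 to 0.54 for Blnk. For the change between weeks the median ran from -3.44 to -0.059, with -3.23 to 1.10 for Ms4a1, -3.20 to 0.41 for Cd22, -3.63 to 0.0023 for Blk, -1.22 to 0.077 for Blnk and -2.12 to 0.72 for Pou2af1.

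In active against sedentary HSC, Blk stood at -0.39 with edgeR and -0.31 with DESeq2, and Blnk at 0.043 with the other column of library 6. With libraries left out, Blk ran from -0.72 to 1.25 and Mzb1 from -0.35 to 1.00. Between transplant and active HSC, 0 genes passed with edgeR, DESeq2, a mean of at least 10, a pseudocount of 5, replicates 1 and 2 alone, the other column of library 6 or the replicate block, and 0 to 1 with libraries left out. DESeq2 gave no adjusted p for Blk and Mzb1 there, and none for 4 of the 5 genes between active and sedentary HSC. In addition, Blk was not tested at a mean of at least 10. The median was -0.77 at a mean of at least 10, -0.68 with a pseudocount of 5 and -3.80 with 0.1, which weighs low values more. Between transplant and sedentary HSC, 1 gene passed with DESeq2 (Cd79b), 1 with a pseudocount of 5 (Blnk), and 0 to 1 with libraries left out. The median was -3.21 with a pseudocount of 0.1, and Cd22 ran from -0.59 to 0.15 with libraries left out. The replicate block changed no other call of the 9 genes. Numbers were taken as pairing libraries only at week 18 and between transplant and active HSC.

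Calls over all genes moved more. At week 12 there were 99 with limma, 208 with DESeq2, 0 with the block and 9 to 71 with libraries left out. The change between weeks had 2, with 172 by DESeq2, 0 by edgeR, 69 with the block and 0 to 23 with libraries left out. Week 18 had 0, with 52 by DESeq2 and 0 to 5 with libraries left out. In HSC, active against sedentary had 0 with limma and 274 with DESeq2. Transplant against active had 7, with 1 by edgeR, 1134 by DESeq2, 0 with the block and 0 to 79 with libraries left out. Transplant against sedentary had 1553, with 2566 by edgeR, 3167 by DESeq2, 95 with the block and 236 to 1674 with libraries left out. The cause of these moves was not tested.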
